A study of Mus musculus with 48 samples.

Results

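H3K4me1-only regions of control neurons were stretches of chromatin that carried monomethylated histone H3 lysine 4 (H3K4me1) in every control library and none of the other 3 marks profiled. They were chosen by merging the overlapping peaks of the 4 control H3K4me1 libraries on chr1 to chr19. A merged region was kept if all 4 libraries had a peak in it and no control library of H3K27ac, H3K9ac or H3K4me3 had a peak overlapping it. Of 165684 merged regions, 96821 had a peak in all 4 libraries, and 17527 of these met the whole rule, which is 10.6% of all merged regions and 18.1% of those with all 4 peaks. The control peaks chose the regions, so the control values below are a description.

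The samples were hippocampal CA neurons and whole hippocampal CA tissue of C57BL/6J mice aged 4 to 6 months, of the genotypes Setd1b cKO and Control. Setd1b encodes a methyltransferase that acts on histone H3 lysine 4. ChIP-seq of neuronal nuclei sorted by FACS comprised 4 libraries of each genotype for H3K4me1 and H3K4me3, 4 cKO and 3 control libraries for H3K27ac, and 3 cKO and 4 control libraries for H3K9ac. RNA-seq comprised 3 libraries of each genotype from neurons and 6 of each from whole CA; the labels do not say how the neuron RNA was isolated. The labels name neither the Cre driver nor the floxed allele. In the published study the gene was deleted in excitatory forebrain neurons with a CaMKII-driven Cre, so sorted neuronal nuclei can also come from cells in which that driver is inactive. The labels do not say whether libraries came from separate animals, so p-values measure the spread between these samples, which may be technical.

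As background, H3K4me1 is laid down at enhancers, the distal stretches that raise transcription of nearby genes. An enhancer with H3K4me1 and acetylated H3K27 is usually called active, while one with H3K4me1 alone is called primed, or poised when it also has a repressive mark, which was not profiled here. H3K4me3 and H3K9ac are typical of active promoters. H3K4me1 is mainly written by KMT2C and KMT2D, whereas SETD1A and SETD1B belong to the branch of the family best known for H3K4me3. A region named here is primed only in the sense of its marks, since no file measures enhancer activity.

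The deposited files hold peaks and no region sequence, so sequence is shown for the RefSeq promoter windows that lay whole inside an H3K4me1-only region. The 5 genes printed were taken because they show the contrast within this group. Nkx6-1, Lhx3 and Pax7 encode homeodomain transcription factors that pattern other tissues or other parts of the nervous system. Klk7, a kallikrein-family serine protease, was the only protein-coding gene with a start in such a region that was called in neuron RNA. Mlip, which encodes a muscular lamin-interacting protein, had H3K4me3 in 3 of 4 cKO libraries in the region that holds its promoter window. The genes were chosen after their values were seen. Each line gives the 250 bases before the gene start on the gene's strand, 5′ to 3′, from RefSeq in GRCm38.p6, with CpG dinucleotides in capitals. On chr5 the Nkx6-1 sequence spans chr5:101664712-101664961 on the minus strand, that of Lhx3 spans chr2:26206576-26206825 on the minus strand and that of Pax7 spans chr4:139832969-139833218 on the minus strand. The Klk7 sequence spans chr7:43811044-43811293 on the plus strand and that of Mlip chr9:77347857-77348106 on the minus strand.
Nkx6-1: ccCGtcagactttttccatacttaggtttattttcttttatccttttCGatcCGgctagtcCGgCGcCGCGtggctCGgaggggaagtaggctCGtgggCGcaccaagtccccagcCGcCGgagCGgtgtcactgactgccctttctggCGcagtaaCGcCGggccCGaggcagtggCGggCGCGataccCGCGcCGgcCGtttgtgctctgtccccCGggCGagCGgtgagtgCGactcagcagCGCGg
Lhx3: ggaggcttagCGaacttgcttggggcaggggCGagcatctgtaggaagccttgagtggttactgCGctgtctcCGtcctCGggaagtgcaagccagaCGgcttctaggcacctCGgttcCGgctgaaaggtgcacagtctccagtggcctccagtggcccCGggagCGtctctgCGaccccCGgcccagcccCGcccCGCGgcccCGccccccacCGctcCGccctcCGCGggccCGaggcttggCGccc
Pax7: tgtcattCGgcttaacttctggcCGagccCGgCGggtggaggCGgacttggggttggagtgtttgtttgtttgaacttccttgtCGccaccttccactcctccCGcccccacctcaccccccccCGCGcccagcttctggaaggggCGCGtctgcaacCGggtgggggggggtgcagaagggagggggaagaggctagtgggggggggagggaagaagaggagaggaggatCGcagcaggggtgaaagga
Klk7: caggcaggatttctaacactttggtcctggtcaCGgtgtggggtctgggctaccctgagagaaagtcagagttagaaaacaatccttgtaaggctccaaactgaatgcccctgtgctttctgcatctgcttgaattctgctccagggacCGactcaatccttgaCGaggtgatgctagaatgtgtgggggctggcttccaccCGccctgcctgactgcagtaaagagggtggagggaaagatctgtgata
Mlip: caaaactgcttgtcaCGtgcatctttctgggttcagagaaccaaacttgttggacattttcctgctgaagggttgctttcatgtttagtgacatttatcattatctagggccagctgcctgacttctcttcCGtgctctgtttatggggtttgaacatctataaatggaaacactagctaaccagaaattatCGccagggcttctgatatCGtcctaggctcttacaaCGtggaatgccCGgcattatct
The Nkx6-1 stretch holds 30 CpG, that of Lhx3 22 and that of Pax7 13, against 4 in Klk7 and 6 in Mlip.

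The H3K4me1-only regions were narrow. Their merged width had a median of 1228 bp and quartiles of 908 and 1724 bp, with a maximum of 12599 bp, and together they covered 25.3 Mb. Regions with H3K4me1 in all 4 control libraries, H3K27ac in all 3 and no H3K4me3, called H3K27ac-marked regions below, numbered 20691 and had a median of 2603 bp. The 28157 regions with H3K4me1 and H3K4me3 in all 4 libraries of each had a median of 2719 bp. Only 17.4% of the H3K4me1-only regions reached 2 kb, against 67.9% of the H3K27ac-marked regions. A wider region has more room for a peak of another mark, so the rule itself favours narrow regions and the comparison is not tested.

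**Figure D1:**
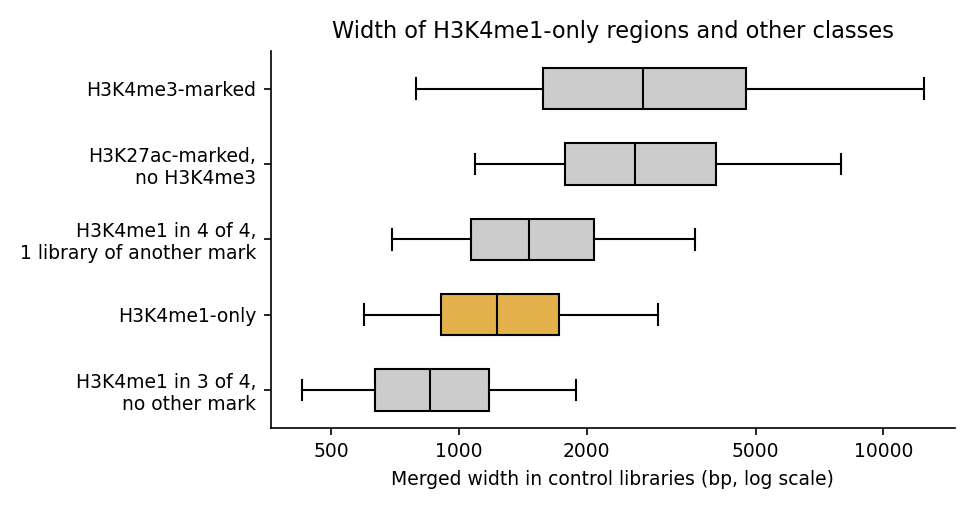
Merged width in base pairs on a log axis for H3K4me1-only regions and 4 other classes of the control libraries. Boxes span the quartiles with the median as a line, and whiskers reach the percentiles 5 and 95. The median of the H3K4me1-only class, 1228 bp, lies between that of regions with H3K4me1 in 3 of 4 libraries (856 bp) and that of regions with 1 library of another mark (1459 bp).

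The edges of the rule were populated. There were 10676 regions with H3K4me1 in 3 of 4 control libraries and no other mark, with a median width of 856 bp. There were 8636 regions with all 4 H3K4me1 peaks and exactly 1 control library of another mark, of which 6183 were excluded by H3K27ac, 1670 by H3K9ac and 783 by H3K4me3. Their median width was 1459 bp. Width therefore rose in steps from regions just outside on the weak side, through those that met the rule, to those just outside on the marked side.

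H3K4me1 itself was weak in these regions. By the authors' values, the median fold enrichment of their H3K4me1 peaks was 2.71 to 2.86 in the 4 control libraries, and the median −log10 q was 1.87 to 2.23. In H3K27ac-marked regions the median −log10 q was 2.39 to 2.96, and in H3K4me3-marked regions 2.98 to 3.57. The share of H3K4me1 peaks with a −log10 q of 5 or more was 0.177 to 1.22% in the H3K4me1-only regions and 7.24 to 18.2% in the H3K4me3-marked ones. Requiring a −log10 q of at least 2 for every H3K4me1 peak left 3006 regions that met the rule.

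The 3 widest regions had H3K4me1 lengths that overlapped between genotypes. The widest, chr5:24819891-24832489 in GRCm38, is 12599 bp long, lies in Rheb, which encodes a small GTPase that activates mTORC1, 16171 bp from the Rheb start. Its H3K4me1 peaks covered 9361, 9001, 6893 and 7467 bp in the control libraries and 8028, 7093, 7922 and 7307 bp in those labelled cKO. The next, chr3:101095444-101106859, lies in Ptgfrn, a negative regulator of the prostaglandin F2 receptor, with 9386, 7887, 9881 and 8702 bp in control and 10078, 10221, 7953 and 9668 bp in cKO libraries. The genotypes overlapped at each of these. The third, chr2:117130830-117141554, lies in Spred1, an inhibitor of Ras-MAPK signalling, and was covered over 7726 ± 746 bp (SD, n = 4) in control and 8074 ± 1401 bp (SD, n = 4) in cKO libraries.

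H3K4me1-only regions lay mostly far from gene starts. In RefSeq GRCm38.p6, 62.5% lay in a gene body and 55.1% in that of a protein-coding gene. The median distance to the nearest gene start was 37347 bp over the 16842 regions on chromosomes for which gene starts were listed, and 327 of these (1.94%) were within 1 kb. H3K27ac-marked regions were placed much alike, at a median of 36058 bp with 1.81% within 1 kb. H3K4me3-marked regions lay at a median of 4092 bp with 23.7% within 1 kb. The nearest control H3K27ac peak was at a median of 10053 bp from an H3K4me1-only region and the nearest control H3K4me3 peak at 18902 bp, both of which the rule bounds from below. Neighbouring H3K4me1-only regions were a median of 60189 bp apart, and 14.2% of neighbours lay within 10 kb. They made up 14.9% (chr7) to 20.6% (chr18) of the regions with all 4 H3K4me1 peaks on each chromosome.

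The few promoter windows inside these regions were poor in CpG. RefSeq windows of 300 bases, 250 before and 50 after a gene start, lay whole inside an H3K4me1-only region in 221 cases, of 211 genes. Of the windows, 76 belonged to 73 protein-coding genes and 145 to long noncoding RNA genes. They had a median of 4 CpG and a GC content of 48.7%, against 17 CpG and 59.3% for 9632 windows inside H3K4me3-marked regions. Windows inside H3K27ac-marked regions, 536 in number, also had a median of 4 CpG. At least 10 CpG were found in 9.50% of the windows inside H3K4me1-only regions, in 73.4% of those inside H3K4me3-marked regions and in 44.0% of all 31396 windows.

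**Figure D2:**
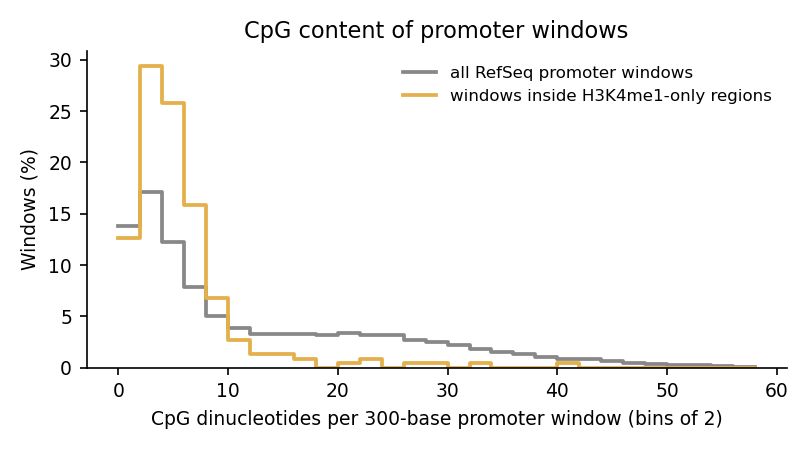
Percentage of 300-base RefSeq promoter windows by their number of CpG dinucleotides, in bins of 2, for the 221 windows inside H3K4me1-only regions and for all 31396 windows on chr1 to chr19 (chr18 has no listed windows). The windows inside H3K4me1-only regions fall mostly below 10 CpG, with a thin tail of CpG-rich windows that reaches 40 CpG in Nkx6-1.

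The CpG-rich tail held 11 protein-coding genes with at least 10 CpG. Nkx6-1 had 40 CpG in its window, Lhx3 28, Dmrta2 26, Hmx2 22, Six6 20 and Pax7 17, all of which encode transcription factors of development. The others were Atp8b3 with 17, a phospholipid-transporting ATPase, Myo1h with 15, a myosin, Mall with 14, Akr1b8 with 10, an aldo-keto reductase, and Npy4r with 10, a receptor of the neuropeptide Y family. Nkx6-1 was at 0, 0.0325 and 0 CPM (gene counts scaled to library size) in the control neuron libraries and at 0 in each cKO library, and Hmx2 was at 0 in all 6. Dmrta2, which encodes a doublesex-related factor, was at 1.57, 1.17 and 1.29 CPM in control and a median of 1.05 CPM in cKO neurons. Of these 11 genes, 2 reached a mean of 1 CPM in control neurons. Over the 68 protein-coding genes with a start in such a region and counts in the neuron tables, 29 reached 1 CPM (42.6%), with a median of 0.286 CPM, against 62.9% and a median of 7.05 CPM over 19601 protein-coding genes. The CpG-poor windows belonged to genes at very different levels. Pf4 (3 CpG, platelet factor 4) and Olfr958 (4 CpG, an odorant receptor) were at or near 0 CPM in control neurons, with at most 0.0163 CPM in a library. Syne1 (4 CpG, a nuclear envelope spectrin-repeat protein) was at 746 ± 26.3 CPM (SD, n = 3) and Lpin2 (4 CpG, a phosphatidate phosphatase) at 191 ± 8.62 CPM (SD, n = 3). These levels are of whole genes. Some windows lie at a start inside the gene body, as in Ptprg and Sox6. Gene counts do not tell which start gave the RNA.

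Short letter motifs were counted in the windows on both strands. CAGATG, an E-box that NEUROD factors can bind, was present in 34.4% of the windows inside H3K4me1-only regions, 27.8% of those inside H3K27ac-marked regions and 17.2% of all windows. TGANTCA, the AP-1 motif, was present in 9.95%, 10.4% and 7.84% of them. TGACGTCA, the cyclic AMP response element, was present in 0.905%, 0.560% and 1.83%, and CATATG in 4.07%, 4.10% and 3.71%. A long A/T-rich MEF2 motif was found in 1 window of the 221 and a palindromic nuclear factor I motif in none. GC content differed between these sets, and its part in the motif shares was not tested.

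Most H3K4me1-only regions kept their H3K4me1 in the libraries labelled cKO. A peak was present in 93.8, 94.2, 88.6 and 92.7% of the 17527 regions in cKO libraries 1 to 4. All 4 cKO libraries had it in 14167 regions (80.8%), and 9758 regions (55.7%) met the whole rule in the cKO libraries as well. Control presence is 100% by choice, so these shares cannot be set against it. The rule was therefore applied again with each control library left out in turn, which gave 19493 to 21296 regions, and the library left out was read beside the cKO libraries. H3K4me1 was then present in 91.7, 88.0, 84.7 and 83.9% of the regions in control libraries 1 to 4, a mean of 87.1% ± 3.57 (SD, n = 4). The mean over cKO libraries was 89.8%, and the cKO share lay above the left-out control share in 13 of 16 pairs of libraries. Within sequencing lanes 2 and 3 the differences were 0.374 and 3.43 percentage points. The overall difference of 2.72 points was smaller than the spread between the left-out control libraries. Each left-out library was read over its own set of regions, so these readings are given with no test. A left-out control library also shared its input library with the control libraries that chose the regions, and the cKO libraries did not. This holds for the other marks below as well. The size of the difference depended on how peaks were counted. With peak numbers made equal by taking the strongest of each library, it shrank to 0.217 points (82.5% in left-out control and 82.7% in cKO libraries). With peaks at a −log10 q of 2 or more it was 13.5 points (45.9 and 59.3%), and with 50% of a region covered 7.33 points. Of all H3K4me1 peaks on chr1 to chr19, 53.5 to 72.8% reached a −log10 q of 2 in control and 61.3 to 76.9% in cKO libraries. The part of this in the 13.5 points was not tested. With genotypes exchanged, regions chosen on cKO libraries had H3K4me1 in 88.8% (81.0 to 92.9% by library) of left-out cKO and 79.8% of control readings, with control above in 1 of 16 pairs.

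**Figure D3:**
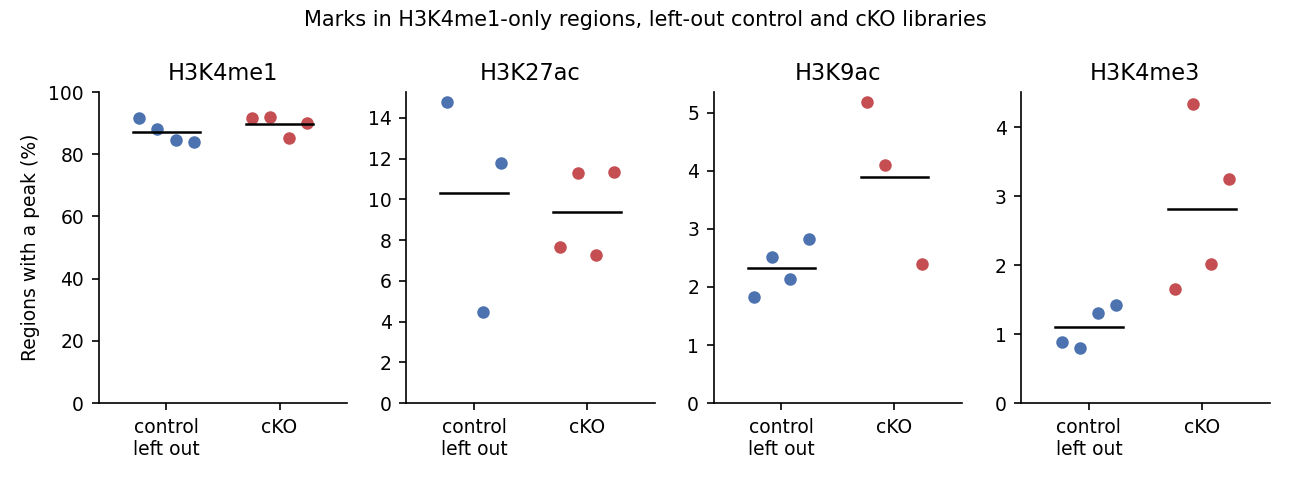
Percentage of regions with a peak of each mark when the rule is applied without 1 control library. Blue points are the control library left out, red points the cKO libraries averaged over these sets, each placed left to right by replicate number, and black lines are means. Axes start at 0 and differ between marks. The H3K4me3 points do not overlap (0.798 to 1.42% in control, 1.65 to 4.33% in cKO), whereas those of H3K27ac do.

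Width went with presence in both genotypes. In the narrowest quartile of regions chosen without the library read (median width 645 bp), H3K4me1 was present in 76.7% ± 5.35 (SD, n = 4) in left-out control libraries and 82.7% ± 4.56 (SD, n = 4) in cKO libraries. In the widest quartile (median width 2051 bp) the shares were 94.7% ± 1.97 (SD, n = 4) and 93.7% ± 2.23 (SD, n = 4). In the narrowest quartile the cKO mean was higher by more than either SD, and in the widest quartile the genotypes differed by less than either SD. In quartiles 2 and 3 the cKO mean was higher by less than the SD of the left-out control libraries.

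**Figure D4:**
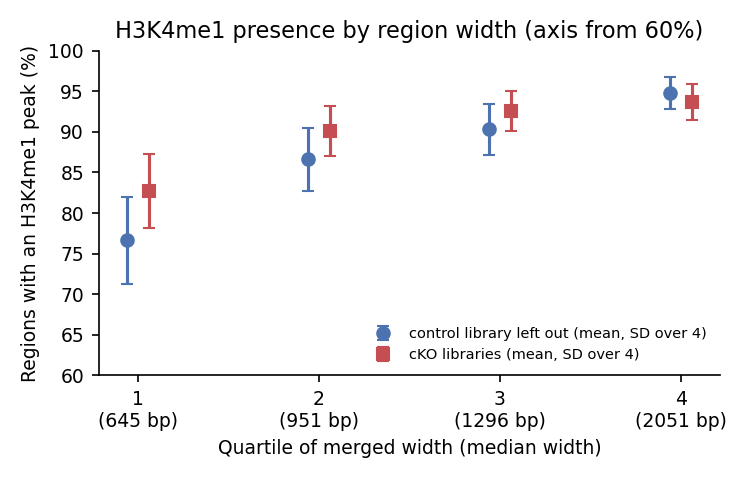
Percentage of regions with an H3K4me1 peak by quartile of merged width, for the control library left out of the rule and for the cKO libraries. Points are means and bars are SD over 4 libraries; the vertical axis starts at 60%. Control climbs from 76.7% in the narrowest quartile to 94.7% in the widest, and cKO from 82.7 to 93.7%.

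A small group lost H3K4me1 altogether. No cKO library had an H3K4me1 peak in 199 of the 17527 regions (1.14%), whereas 0.39% of all regions with 4 control peaks did so. The rule used the control side of that contrast, so nothing is read from the difference. With genotypes exchanged, 21973 regions met the rule in cKO libraries, and 532 of these (2.42%) had no H3K4me1 peak in any control library. The 199 regions lay closer to gene starts than the whole set, at a median of 16425 bp, and 146 (73.4%) lay in protein-coding genes. They fell in 145 protein-coding genes with an Ensembl ID, of which 137 (94.5%) reached 1 CPM in control neurons, at a median of 58.3 CPM. Over all genes that held an H3K4me1-only region the median was 22.4 CPM.

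The lost regions named here were picked for their control coverage and do not stand for the whole group. The region chr13:55244722-55252350 in Nsd1, which encodes an H3K36 methyltransferase, was covered over 7213, 5370, 3228 and 4671 bp in the control libraries and 0 bp in each cKO library. In chr18:46514723-46519123 in Fem1c, a substrate receptor of an E3 ubiquitin ligase, the control values were 1509, 2969, 3292 and 2507 bp, again against 0 in each cKO library. Neither carried a peak of another mark in a cKO library. RNA of these genes did not pass the threshold in neurons (edgeR log2 fold change 0.10 ± 0.09 SE for Nsd1 and 0.24 ± 0.13 SE for Fem1c, adjusted p = 0.615 and 0.374). Each genotype had its own single input library, so input and genotype cannot be told apart for peaks that are present or absent by genotype.

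Covered H3K4me1 length was also compared region by region, over regions merged from the peaks of all 8 H3K4me1 libraries. Each H3K4me1-only region took the value of the merged region that contains it. That merged region can be wider and can contain more than 1 of them. With limma on log2(covered bp + 100) over 135722 regions with a peak in at least 3 of 8 libraries, 1.48% were called at an adjusted p under 0.05, with 0.715% shorter and 0.768% longer in cKO. Of the 17527 H3K4me1-only regions, 222 (1.27%) were called shorter and 41 (0.234%) longer. They had a median log2 difference of 0.07 against 0.14 over all regions. Their control side was fixed by the rule, so the surplus of shorter regions is not read further. Where all 8 libraries had a peak, 85881 regions could be tested, of which 1.29% were called, 0.918% shorter and 0.369% longer. The 14287 H3K4me1-only regions contained in them had 20 called shorter (0.140%) and 86 longer (0.602%). Their median log2 difference was 0.16 against 0.09 over all regions. They outnumber the 14167 with H3K4me1 in all 4 cKO libraries, because a cKO peak can lie in the merged region but outside the H3K4me1-only region. The direction of the called regions thus turned with the set of regions tested. The number called longer also rested on single libraries, with 69 without cKO 3 and 26 without cKO 4.

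H3K4me3 appeared in more H3K4me1-only regions of cKO than of left-out control libraries. It was present in 245, 676, 302 and 497 of the 17527 regions in cKO libraries 1 to 4 (1.40, 3.86, 1.72 and 2.84%). With the rule applied without the library read, the left-out control shares were 0.882, 0.798, 1.31 and 1.42%, a mean of 1.10% ± 0.310 (SD, n = 4). The mean over cKO libraries was 2.81%, which is 2.55 times as high, and the cKO share was above the control share in all 16 pairs of libraries. The libraries of a genotype share a single input library. The pairs are therefore not independent, and input and genotype cannot be told apart. Within lanes 1 and 2 the cKO mean was higher by 1.64 and 1.90 points. The lowest cKO library, at 1.65% over these sets, stood above the highest left-out control library. With genotypes exchanged, regions chosen on cKO libraries had H3K4me3 in 1.31% ± 0.825 (SD, n = 4) of left-out cKO and 0.732% of control readings. There the readings overlapped (0.660 to 2.43% in cKO and 0.452 to 1.04% in control), control was above in 4 of 16 pairs, and the difference was smaller than the SD. H3K27ac-marked regions showed the same order, with 3.70% ± 1.19 (SD, n = 4) in left-out control and 6.35% in cKO libraries, above in 13 of 16 pairs.

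The H3K4me3 peaks that appeared were short. Their median length was 187 to 230 bp in the 4 cKO libraries, whereas H3K4me3 peaks as a whole had a median of 473 to 566 bp there. The authors' median fold enrichment was 3.63 to 3.89 in these peaks and 5.58 to 7.19 over all H3K4me3 peaks. They covered 0.405% ± 0.212 (SD, n = 4) of the length of the H3K4me1-only regions. cKO library 2, with the highest share, also had the most H3K4me3 peaks (54493), but the order of peak numbers and of shares differed among the other libraries. cKO 3 had fewer peaks than cKO 1 (44938 against 46309) and a higher share, and cKO 4 and Control 4 had similar numbers (49366 and 49648) with shares of 3.25 and 1.42%. With the same number of strongest peaks taken in every library, the left-out control mean was 0.887% and the cKO mean 2.102%. Requiring a peak to cover 50% of a region left 0.0197% in left-out control and 0.0702% in cKO libraries.

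Few regions gained H3K4me3 in every cKO library. There were 26 of 17527 (0.148%), against 0.29% of the 57552 regions without H3K4me3 in any control library and 0.172% of all 96821 regions with 4 H3K4me1 peaks. Of the 26, 23 also kept H3K4me1 in all 4 cKO libraries and 15 had no acetylation peak in any cKO library. None lay within 1 kb of a gene start, and their median distance was 39694 bp. The most covered, chr18:43237617-43239088 in Stk32a, a serine/threonine kinase gene, had 219 to 521 bp of H3K4me3 in the cKO libraries, with a mean of 398 bp. Its H3K4me1 covered 1311 ± 95.7 bp in control and 1316 ± 74.2 bp in cKO libraries (SD, n = 4 each). The next, chr14:99893851-99895168 in Klf12, a zinc-finger repressor gene, had 196, 338, 317 and 601 bp of H3K4me3 in the cKO libraries. In the region that holds the Mlip promoter printed above, H3K4me3 was present in 3 of 4 cKO libraries. No H3K4me1-only region that held a promoter window had it in all 4. Mlip RNA was 14.7, 15.4 and 15.4 CPM in control neurons and 16.8, 18.8 and 15.3 CPM in cKO neurons, which overlap (edgeR adjusted p = 0.421).

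H3K27ac in regions chosen on control libraries did not differ between genotypes beyond the libraries' spread. It appeared in 5.44, 8.46, 4.998 and 8.62% of the 17527 regions in cKO libraries 1 to 4. The control libraries left out had 14.7% (library 1), 4.45% (library 3) and 11.8% (library 4), where library 1 is numbered by its label and its deposited file carries another number, and the cKO mean over the same sets was 9.39%. The cKO share was above the control share in 6 of 12 pairs, and within lanes 4 and 5 the difference was -0.54 and -1.35 points. The control library with the highest share also had the most H3K27ac peaks, 195426, and that with the lowest the fewest, 144741. The part of peak number in these shares was not tested. With the same number of strongest peaks the means were 6.57% in left-out control and 8.18% in cKO libraries. With genotypes exchanged, H3K27ac was present in 4.99% ± 1.90 (SD, n = 4) of left-out cKO and 8.51% of control readings, with control above in 10 of 12 pairs. The difference of 3.53 points was larger than the SD of the cKO readings. It was smaller than the SD of the control readings, which was 3.96 to 4.28 points over these sets. Control libraries 1, 3 and 4 had 12.3, 4.21 and 9.05%.

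All 4 cKO libraries had H3K27ac in 165 of the 17527 regions (0.941%), and 0.945% of the 24766 regions without control H3K27ac did so (0.242% of all 96821 regions). The 24766 regions include the 17527 H3K4me1-only regions, and the 165 are part of the 234 that did so. These shares are therefore not independent, and their closeness is not read further. The most covered lay at chr9:112249743-112252668, outside any gene, with 1269, 1700, 1429 and 1643 bp of H3K27ac in the cKO libraries. Its H3K4me1 spread from 276 to 2926 bp in control and from 1780 to 2687 bp in cKO libraries. The next, chr3:154756278-154758633 in Erich3, had 718, 1157, 770 and 1172 bp of H3K27ac. Both of these regions kept H3K4me1 in all 4 cKO libraries.

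H3K9ac appeared in 4.61, 3.62 and 2.09% of the 17527 regions in cKO libraries 1, 2 and 4. Left-out control libraries had 1.82, 2.52, 2.14 and 2.82%, a mean of 2.33% ± 0.438 (SD, n = 4), and the cKO mean over the same sets was 3.89%, above in 10 of 12 pairs. The lowest cKO library lay inside the control range. Within lanes 5 and 6 the difference was 3.32 and 0.768 points, with 1 control library in lane 5. With genotypes exchanged, the shares were 3.81% ± 1.796 (SD, n = 3) in left-out cKO and 2.64% in control readings, with control above in 3 of 12 pairs. cKO library 1, with the highest share, had the most H3K9ac peaks (138833, against 108217 to 117343 in control). Without it the difference shrank from 1.56 to 0.915 points, and with the same number of strongest peaks to 0.714 points. H3K9ac was present in all 3 cKO libraries in 34 regions (0.194%), against 1.42% of regions without control H3K9ac and 0.615% of all 96821 regions. The most covered, chr17:64096334-64098499 in Fer, a tyrosine kinase gene, had 287, 740 and 240 bp of H3K9ac and also H3K27ac in all 4 cKO libraries. The next, chr10:8945081-8946120 in Sash1, a scaffold protein gene, had 520, 399 and 345 bp.

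Regions with more than 1 other mark in every cKO library were few. Each mark alone was also rare there, with H3K27ac in 165, H3K9ac in 34 and H3K4me3 in 26 of 17527 regions. Whether the marks went together was not tested. No H3K4me1-only region had all 3 other marks in every cKO library, 1 had H3K4me3 and H3K27ac throughout, 2 had H3K27ac and H3K9ac and none had H3K4me3 and H3K9ac. In all, 4849 of the 17527 regions (27.7%) had a peak of another mark in at least 1 cKO library, with a median width of 1353 bp, and the 12678 without any had a median of 1183 bp. A total of 185 regions had no mark at all in any cKO library.

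Long genes of synaptic adhesion held many of these regions. A gene is said to hold a region when the region lies in its body. Of 20661 protein-coding genes, 4009 (19.4%) held at least 1, and 452 held 5 or more. The genes with most were Lsamp with 41, Auts2 with 35, Cdh13 and Ptprg with 29 each and Ntm with 26. Lsamp and Ntm encode immunoglobulin-domain adhesion proteins, Cdh13 a cadherin, Ptprg a receptor tyrosine phosphatase and Auts2 a nuclear regulator of neuronal development. Genes that held a region were long, with a median of 84.0 kb against 17.5 kb over all, and those with 5 or more had a median of 379 kb. Among 29 synaptic adhesion genes, with a median length of 791 kb, 21 held 253 H3K4me1-only regions, which is 24.2% of their regions with all 4 H3K4me1 peaks, against 15.9% over all protein-coding genes. Rora, a nuclear receptor gene, held 23 H3K4me1-only and 0 H3K27ac-marked regions.

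Other lists held fewer regions in number, but not always a lower share. The share of regions with all 4 H3K4me1 peaks that were H3K4me1-only was 29.4% in interneuron markers (51 regions) and 27.8% in microglia markers (18 regions), above the synaptic adhesion genes. It was 17.9% in endothelial and mural markers (28 regions) and 11.6% in plasticity genes (198 regions). Below the 15.9% over all protein-coding genes were also astrocyte (11.1% of 36), dentate granule cell (9.84% of 61) and oligodendrocyte markers (8.70% of 23) and forebrain progenitor genes (5% of 20). Of 28 plasticity genes, 4 held 23 regions, with 12 in Reln, the secreted reelin glycoprotein, 6 in Homer1, a postsynaptic scaffold, 3 in Grm5 and 2 in Creb1. None of 10 markers of CA pyramidal neurons held any, and 20 regions with 4 H3K4me1 peaks lay in them. Of 16 interneuron markers, 4 held 15 regions (7 in Adarb2, 4 in Sox6, 3 in Nxph1 and 1 in Lhx6). Of 12 microglia markers, 5 held 1 region each, among them Cx3cr1, Itgam, Tmem119 and C1qa. In neuron RNA the summed microglia markers stood at 29.5 to 31.6 CPM in control and 27.6 to 31.8 CPM in cKO libraries, against 415 to 499 CPM in control whole CA. No microglia marker was at 0 in every neuron library. The part of other cell types in these regions was not tested. Of 11 astrocyte markers 3 held a region, of 10 oligodendrocyte markers 2, of 12 endothelial and mural markers 3, of 7 dentate granule cell markers 2 and of 16 forebrain progenitor genes 1. Of 16 histone acetyltransferase and deacetylase genes 6 held 24 regions, among them Hdac9 with 9 and Crebbp and Hdac4 with 4 each, and of 10 H3K4 methyltransferase and demethylase genes Kmt2c alone held any, with 4.

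Before the RNA results, the libraries were checked. Setd1b counts were 65.3, 50.2 and 48.0 CPM in control neurons and 60.4, 62.5 and 70.3 CPM in neurons labelled cKO (edgeR adjusted p = 0.361), and in whole CA they were higher in cKO (log2 fold change 0.59 ± 0.11 SE, edgeR adjusted p = 0.00415). Whole-gene counts thus do not check the deletion, and cKO means the library labelled cKO throughout. In neuron RNA, summed CA pyramidal markers stood at 2204 to 2580 CPM in control and 1942 to 2197 CPM in cKO libraries, without overlap, and 3 of 10 were called lower. Summed astrocyte markers stood at 392 to 456 CPM in control and 471 to 487 CPM in cKO neurons, also without overlap, and at 6901 to 7849 CPM in whole CA. In neurons Slc1a2 made up most of this sum, at 297 to 356 CPM in control and 387 to 403 CPM in cKO libraries. The median log2 fold change of the 11 astrocyte markers in neurons was -0.30, with 1 called lower and 0 higher. Neuron libraries held 55.7 to 69.1 M counts and whole CA libraries 14.9 to 20.1 M counts. In bulk RNA, fewer cells of a type and less RNA per cell cannot be told apart.

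Genes that held an H3K4me1-only region were expressed more often than protein-coding genes as a whole, and by quartile of gene length this held in the longest quartile only. Of 3950 with counts, 79.8% reached 1 CPM in control neurons, at a median of 22.4 CPM, against 62.9% and 7.05 CPM over all protein-coding genes. Those that also held no H3K27ac-marked region reached 1 CPM in 69.4% of cases, at a median of 7.38 CPM. In the shorter 3 quartiles of gene length, genes with a region reached 1 CPM less often than genes without (11.8 against 33.9%, 47.8 against 63.6% and 67.9 against 71.8%). In the longest quartile they did so more often (86.7 against 78.7%). CPM is not per length, so the medians describe counts and not transcripts.

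In neuron RNA these genes were called about as often as all genes. Of 19622 genes tested with edgeR, 2.75% were called (Benjamini-Hochberg threshold of 0.05), 2.0% lower and 0.744% higher in cKO. Of 3532 tested genes that held an H3K4me1-only region, 100 were called (2.83%), 79 lower (2.24%) and 21 higher (0.595%). Their median log2 fold change was 0.04, against 0.02 over all genes. Over the 14167 tested protein-coding genes on chr1 to chr19 the median was -0.01, with 2.24% called lower and 0.558% higher. Besides the pyramidal markers and the summed astrocyte level above, markers of dentate granule cells moved with genotype in the same libraries. Of the dentate markers, 4 of 7 were called lower, and their summed level was 280 to 309 CPM in control and 192 to 236 CPM in cKO neurons. The part of cell composition in the calls was not tested. Leaving out 1 library moved these counts: without Control 2, Control 3, cKO 1 or cKO 2 they fell to 46, 43, 35 and 33 lower and 3, 4, 0 and 4 higher genes. Of the 141 tested genes that held a region without H3K4me1 in any cKO library, edgeR called 0 in neurons, with 12 at an unadjusted p under 0.05, and DESeq2 called 1, which was lower. Of the 10 that held a region with H3K4me3 in every cKO library, edgeR called 0, with 1 at an unadjusted p under 0.05, and DESeq2 called 1, also lower.

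The 8 largest falls in neurons, among called genes whose average log2 CPM was not below 0, were in genes of diverse function. Of these, 3 also fell in whole CA. Npsr1, the receptor of neuropeptide S, held 1 region and was at 2.77, 5.04 and 3.58 CPM in control and 0.678, 0.834 and 0.543 CPM in cKO neurons (log2 fold change -2.46 ± 0.25 SE, edgeR adjusted p = 0.000838). It was also lower in whole CA (log2 fold change -2.33 ± 0.34 SE, edgeR adjusted p = 0.000257). Thsd4, a thrombospondin-repeat protein of the extracellular matrix, held 11 H3K4me1-only and 19 H3K27ac-marked regions. It was at 130, 111 and 102 CPM in control and 35.8, 32.3 and 39.7 CPM in cKO neurons (log2 fold change -1.66 ± 0.12 SE, edgeR adjusted p = 0.000129). Scube1, a secreted EGF-domain protein, was at 77.3, 58.4 and 60.9 CPM in control and 24.7, 22.5 and 25.01 CPM in cKO neurons (log2 fold change -1.44 ± 0.12 SE, edgeR adjusted p = 0.000295). No control library overlapped a cKO library in any of the 3 genes. Thsd4 and Scube1 fell by 1.42 and 1.37 on the log2 scale in whole CA as well (edgeR adjusted p = 1.78e-10 and 9.13e-08).

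The other falls named were seen in neurons but did not pass in whole CA. Atp10b, a phospholipid-transporting ATPase, fell by 2.13 in neurons, Ecm2, an extracellular matrix protein, by 1.63, Col22a1, a collagen, and Afap1l2, a Src-associated adaptor, by 1.39 each, on the log2 scale (edgeR adjusted p = 0.000855, 0.00048, 0.000574 and 0.00279). In whole CA their edgeR adjusted p was 0.541, 0.915, 0.416 and 0.09. Klk7, whose promoter is printed above, was at 1.35, 1.48 and 1.34 CPM in control and 0.738, 0.503 and 0.473 CPM in cKO neurons (log2 fold change -1.27 ± 0.22 SE, edgeR adjusted p = 0.0153). Its promoter region kept H3K4me1 in all 4 cKO libraries and gained no other mark. Klk7 belongs to a cluster of related kallikrein genes, so its low counts are uncertain. Its adjusted p was 0.0611 without Control 2, 0.0575 without Control 3 and 0.0613 without cKO 2 (edgeR), and it was too low to be tested in whole CA.

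The rises were smaller. Gpr55, a lipid-sensing receptor, was at 1.42, 1.204 and 1.55 CPM in control and 2.79, 2.53 and 3.05 CPM in cKO neurons (log2 fold change 1.01 ± 0.16 SE, edgeR adjusted p = 0.00899). It rose in whole CA too (log2 fold change 0.82 ± 0.22 SE, edgeR adjusted p = 0.0434), as did Myo3b, a myosin with a kinase domain (0.71 ± 0.12 SE in neurons and 0.99 ± 0.18 SE in whole CA, edgeR adjusted p = 0.0153 and 0.00263). Pbld2, Ankrd31, Map3k19, Crb1 and Pstpip2 rose by 0.59 to 0.69 in neurons on the log2 scale (edgeR adjusted p = 0.0279 to 0.0496). Each rise named here missed the threshold with at least 1 library left out: Gpr55 under 1 of 10 alternatives, Myo3b and Ankrd31 under 4, Pbld2, Map3k19 and Pstpip2 under 6, and Crb1 under 7. The labels do not give the strand used in counting, so reads of overlapping antisense genes cannot be told apart.

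**Figure D5:**
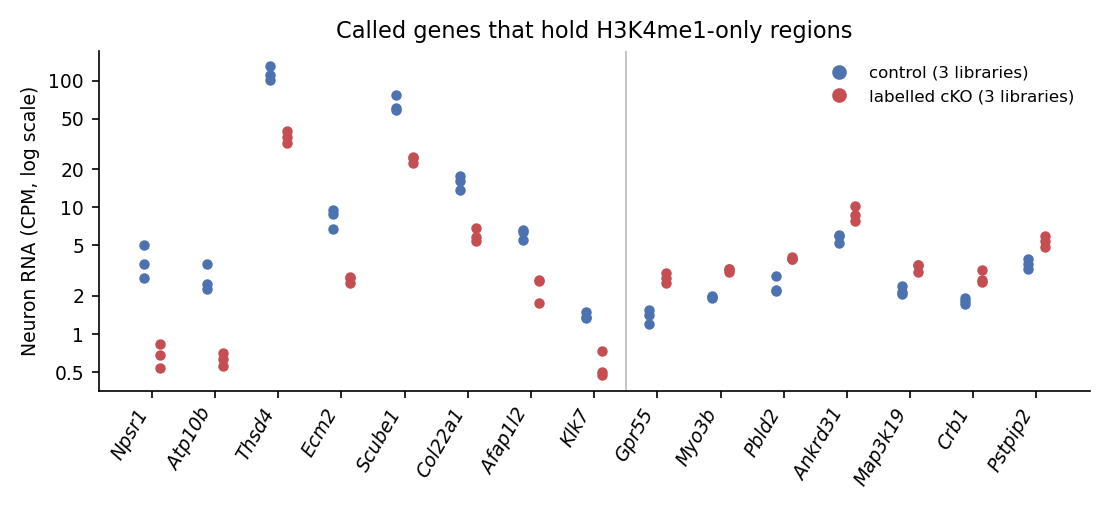
Neuron RNA in CPM on a log axis for called genes that hold an H3K4me1-only region, lower ones on the left and higher ones on the right, with the largest fold changes in each direction. Each point is a library, blue for control and red for libraries labelled cKO. No gene plotted has overlapping genotypes, and the falls reach 2.46 on the log2 scale whereas the rises stop at 1.01.

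The genes with most H3K4me1-only regions did not pass the RNA test. Lsamp was at 290, 367 and 348 CPM in control and 353, 365 and 339 CPM in cKO neurons (log2 fold change 0.08 ± 0.10 SE, edgeR adjusted p = 0.738). Auts2, Cdh13, Ptprg and Ntm had log2 fold changes of 0.03, -0.09, -0.09 and -0.05 with SE of 0.08 to 0.10, and edgeR adjusted p of 0.657 to 0.912. Among the 29 synaptic adhesion genes, edgeR called 1 in neurons and 5 in whole CA, each of them lower in cKO, where 2.0 and 2.79% of all genes were called lower; their median length was 791 kb. Of 28 plasticity genes, 1 was called in neurons, also lower. Reln, which held 12 regions, was at 90.3, 94.2 and 95.2 CPM in control and 86.6, 107 and 94.5 CPM in cKO neurons (edgeR adjusted p = 0.842). Of the histone deacetylase gene Hdac9, with 9 regions, RNA fell by 0.47 on the log2 scale in whole CA but did not pass in neurons (edgeR adjusted p = 0.000668 and 0.681).

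In whole CA RNA, 640 of 15362 genes were called by edgeR (4.17%), 2.79% lower and 1.38% higher. Of 3389 tested genes that held an H3K4me1-only region, 123 were lower (3.63%) and 45 higher (1.33%). Replicates 1 to 3 and 4 to 6 were sequenced on separate lanes, and within them 37 and 50 were lower and 9 and 8 higher. Of the lower genes, 34 were also lower in neurons, which is 43.04% of the neuron and 27.6% of the whole CA calls. Genes with 5 or more such regions had 26 of 432 lower (6.02%) and 4 higher (0.926%). Gene length moved with the share of lower genes. With and without a region it was 3.87 and 3.75% at 100 to 200 kb, 5.12 and 5.26% at 200 to 400 kb, and 12.1% (36 of 297) and 40% (6 of 15) at 400 kb or more. The part of length was not tested.

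Genes that held a region with H3K27ac in every cKO library included several that fell in whole CA. The share of such regions was 0.941%, beside 0.945% of a wider set that includes them, as given above. Of 74 tested genes that held one, edgeR called 11 lower (14.9%) and 0 higher, with 4 higher at an unadjusted p under 0.05. Over all genes tested in whole CA, edgeR called 2.79% lower and 1.38% higher. DESeq2 called 13 of the 74 genes lower and 0 higher. The 2 with the largest falls were Gpm6a, a neuronal membrane glycoprotein, and Zbtb20, a transcription factor of hippocampal CA1 identity, both chosen after their values were seen. Gpm6a ranged from 1483 to 1790 CPM in control (median 1678) and from 653 to 908 CPM in cKO libraries (median 820), and its log2 fold change was -1.09 ± 0.07 SE (adjusted p = 2.14e-08, edgeR). Zbtb20 ranged from 287 to 458 CPM in control (median 334) and from 143 to 195 CPM in cKO libraries (median 167), and its log2 fold change was -1.07 ± 0.10 SE (adjusted p = 8.45e-07, edgeR). Neither gene's genotypes overlapped. In neurons Zbtb20 also fell (log2 fold change -1.04, edgeR adjusted p = 0.00074), while Gpm6a did not pass (-0.75, edgeR adjusted p = 0.0872), and of 75 such genes tested in neurons edgeR called 2, both lower. Of the 10 tested genes with a region that had H3K4me3 in every cKO library, edgeR called 3 in whole CA, all lower: Robo1, an axon guidance receptor (log2 fold change -0.34), Abca9, a lipid transporter (-0.38), and Phactr2, an actin and phosphatase regulator (-0.25). The median length of the genes that held a region with H3K27ac in every cKO library was 282 kb. The shares of lower genes by length are given above. The part of length in their calls was not tested.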

How the data were processed

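ChIP files were peak lists, 1 per library, as deposited by the authors, and the RNA files held whole-number read counts per Ensembl gene, as deposited by the authors. Per the file headers, MACS 2.1.0.20140616 (2.1.1.20160309 for H3K4me3) called peaks per library at a q-value cutoff of 0.1, with broad calling for H3K4me1. Each genotype had a single input library, with 28.8 M tags for control and 31.3 M for cKO. ChIP libraries held 24.4 to 41.6 M tags. Each deposited peak has a −log10 q-value and a fold enrichment, a ratio to input. The submitters' processing notes name mm10 and GRCm38, SAMtools and MACS2. Sequencing lanes are those in the names of the deposited files. The aligner and the counter are not given in the sources used here.

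The members and the gene lists were chosen with earlier results of these data known. Peaks were merged with Python 3.11.15, numpy 2.4.6 and pandas 2.3.3. A library has a mark where any peak overlaps a region. RefSeq GRCm38.p6 gave genes (95.8% of 20661 protein-coding genes matched an Ensembl ID) and promoter windows. No genome sequence was used, so promoter windows stand in for the middle of the named regions. Regions merged over the 8 H3K4me1 libraries, with a peak in at least 3, were compared with limma 3.58.1 on log2(covered bp + 100). Counts were compared with edgeR 4.0.16 (quasi-likelihood, TMM, filterByExpr). Both were tested on simulated data. Adjusted p-values are Benjamini-Hochberg over all features. Symbols matched 99.3% of neuron and 98.9% of whole CA IDs. Deviations of same-numbered libraries were at most weakly correlated (-0.06 to 0.29 in neuron RNA, -0.06 to 0.20 in whole CA RNA and 6.3e-05 to 0.027 in H3K4me1 length). Numbers were therefore not taken to pair samples, which the labels do not settle. Named regions were the 3 widest, the 3 without cKO H3K4me1 and with most control coverage, and 2 per other mark with a peak in every cKO library and most coverage. Named genes were the 5 that held most regions, up to 2 a list with most regions, and the 8 lower and 8 higher called in neuron RNA with the largest fold changes and a mean log2 CPM of at least 0. The shares in long genes were added after the data were seen. Of the regions and genes this rule names, 1 region and 1 gene are not reported here.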

Additional observations from a re-analysis of the deposited data

Results flagged for a closer look

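In 8 of 80 groups of 4 to 10 libraries, the highest or lowest library stood apart by Dixon's criterion, and chance does so in about 1 in 20 groups. In control H3K4me1, 1 library covered 70.9% of the bases of the H3K4me1-only regions, and the other 3 covered 63.9 to 65.0%. In whole CA RNA labelled cKO, the lowest library for Npsr1 was at 0.0598 CPM, and the highest libraries were at 2.89 CPM for Col22a1, 195 CPM for Ntm and 30.5 CPM for Erich3. In control whole CA RNA, the highest libraries were at 1.10 CPM for Pbld2, 1.93 CPM for Crb1 and 44.9 CPM for Fem1c.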

How the results depend on the processing

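With only H3K4me1 peaks at a −log10 q of 2 or more, 3006 regions met the rule (median width 1374 bp) and 5638 met it with genotypes exchanged, an alternative added after the data were seen. The same number of strongest peaks gave a median width of 1293 bp. Leaving out a control library gave 17668 to 21296 regions with median widths of 1092 to 1264 bp. The H3K4me1 difference between cKO and left-out control, 2.72 points, became 0.217 with equal peak numbers, 13.5 at a −log10 q of 2 and 7.33 at 50% coverage. It was 1.96 to 4.67 with a library left out. The H3K27ac difference was -3.47 to 0.994 points with a library left out. The H3K9ac difference, 1.56 points, was 1.09 at a −log10 q of 2, 0.714 with equal peak numbers, 0.0604 at 50% coverage, 3.32 within lane 5 and 0.768 within lane 6. It was 0.915 to 2.31 with a library left out. The H3K4me3 difference, 1.71 points, was 1.22 with equal peak numbers and 0.0504 at 50% coverage, and 1.199 to 2.09 with a library left out. For these values the cause was not tested.

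Of regions called by limma, 222 shorter and 41 longer, an offset of 1000 bp gave 71 longer, and a peak in every library gave 20 shorter and 86 longer, over fewer regions. A library left out gave 200 to 313 shorter and 26 to 69 longer. In neuron RNA, DESeq2 called 122 lower and 39 higher genes, and a library left out gave 33 to 73 lower and 0 to 18 higher, with fewer samples. In whole CA, DESeq2 called 77 higher, replicates 1 to 3 alone gave 37 lower and 9 higher, and replicates 4 to 6 alone 50 and 8.

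Numbers were not taken to pair the libraries, and the main fits held no term for replicate or lane. With a replicate block, limma called 109 shorter and 0 longer regions, and edgeR called 48 lower and 5 higher genes in neurons and 160 lower and 63 higher in whole CA. Differences between same-numbered libraries, as a replicate block, were 2.63 points for H3K4me1, -1.37 for H3K27ac (where the file of Control 1 carries another number than its label), 1.51 for H3K9ac and 1.70 for H3K4me3. Of the values of single genes and regions under alternatives, 609 kept their side of the threshold, 46 lost the call and 3 gained it. No call turned into a call in the other direction. The direction of values that were not called was not compared.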
